A study of Mus musculus with 6 samples.

Results

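The glycolysis and hypoxia genes followed here were 34 named mouse genes: glucose and lactate transporters, enzymes of glycolysis, kinases that switch sugar use, the hypoxia-inducible factor gene Hif1a with its oxygen-sensing hydroxylases, and genes that low oxygen is known to raise. They were found by the gene symbol in the probe annotation of the deposited table, and each gene was read from its brightest row by the mean of the 6 arrays. Of the 34 genes, 31 had a row that named only that gene, out of 19938 genes with such a row. Gapdh was named only in 25 rows that also named other genes, and no row was matched to Gpi1 or Eno1, so these 3 members were not analysed here.

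Glycolysis splits glucose to pyruvate and yields ATP without oxygen, and lactate dehydrogenase and lactate export let it run on when pyruvate is not passed to mitochondria. Hypoxia-inducible factor, whose oxygen-regulated subunit is encoded by Hif1a, is marked for destruction by prolyl hydroxylases such as Egln1 and Egln3 while oxygen is present. When oxygen falls it accumulates and raises transcription of many glycolytic genes, of Bnip3, Adm and Pdk1, and of Egln3 itself. The control of the factor acts mainly on the protein, which these arrays did not measure. Lymph node (LN) stromal cells form the reticular network on which lymphocytes move, and cultured fibroblasts are commonly strongly glycolytic.

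The study set out to assess relative gene expression in LN stromal cells, and RNA was hybridised to 6 single-colour Affymetrix arrays. One array held mouse embryonic fibroblasts (MEF), grown from C57BL/6JJcl embryos at E11.5-13.5. Another held LN stroma of adult C57BL/6JJcl mice, sorted straight after enzyme digestion as cells without CD45 and CD31 and with podoplanin and VCAM-1. The other 4 arrays held the stromal lines BLS4 and BLS12, derived from LN of BALB/cA mice, each without stimulation and after 2 days with an agonistic antibody (goat polyclonal, 1 µg/ml) to LTβR, the lymphotoxin β receptor. No control antibody was named for the unstimulated lines, the MEF and the lines were cultured in DMEM with serum, no oxygen level was stated, and the number of mice behind the LN sample was not stated. All values below are log2 intensities or differences between them, on which 1 unit is 2-fold, and each level is 1 array.

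The array medians lay between 5.69 and 5.82 on the log2 scale, and 26 of the 31 members lay at or above the median on all 6 arrays. Car9, a carbonic anhydrase of the cell surface, lay below the median on every array (4.67 to 5.27) and entered none of the tests or 2-fold counts, only the patterns given over all 31 members. The other 4 exceptions were Aldoc and Egln3, each at or above the median on 3 arrays, Slc2a3 on 4 and Ankrd37 on 5, and their differences are approximate where the lower level lies under the median. Markers of fibroblastic stroma lay at or above the median on all arrays (9 of 9 with a row), and 0 of 6 lymphocyte markers did so on the LN stroma array. Among the 31 members, LN stroma was the lowest array for 16 and the highest for 4, and a BLS4 array was the highest for 19. How often these patterns hold over all genes was not counted, so they only describe the members.

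**Figure D1:**
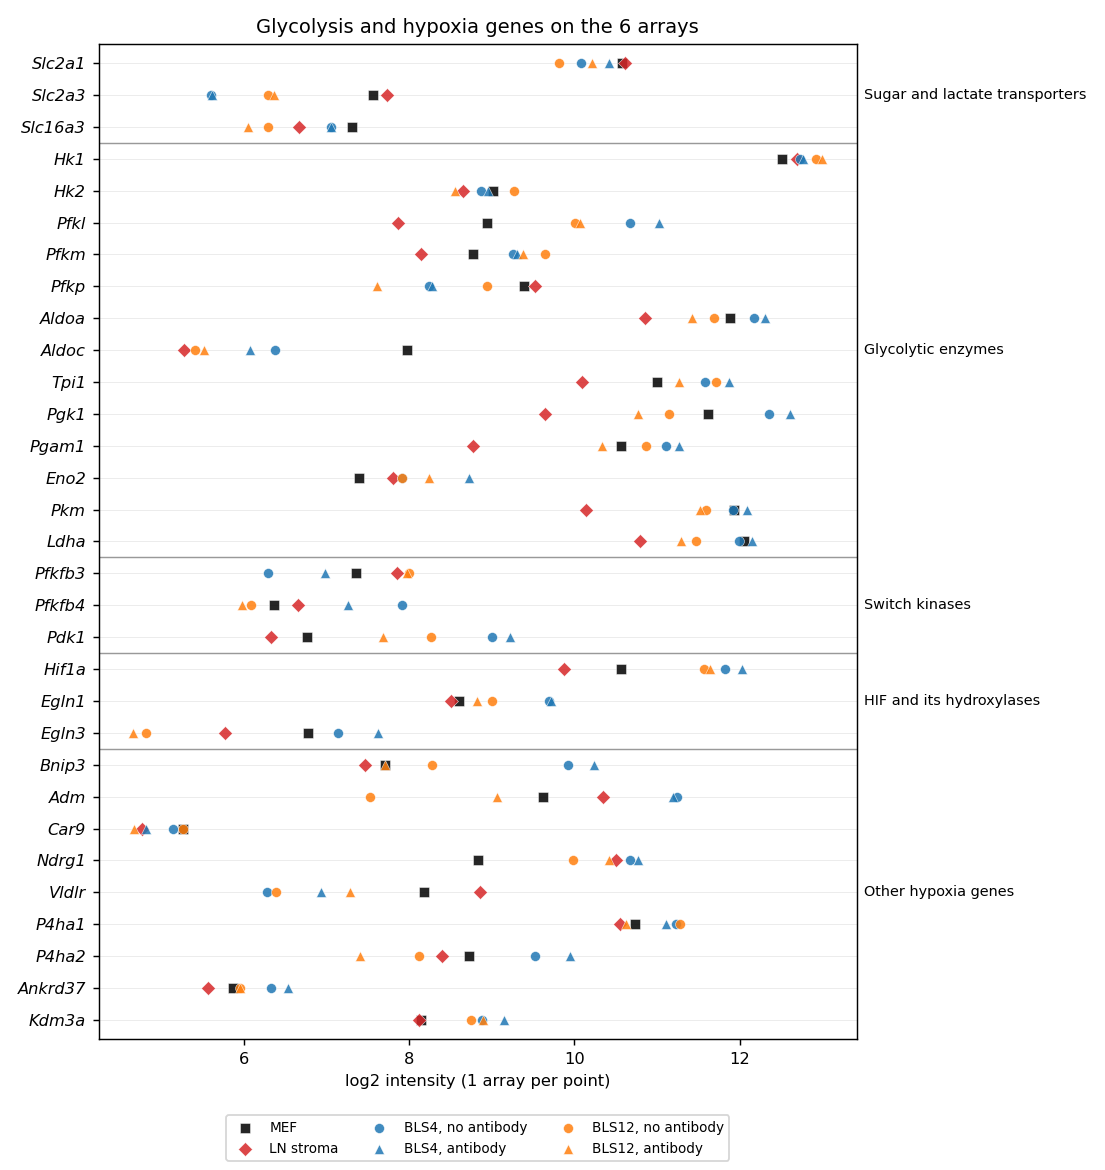
Log2 intensity of the 31 members with a row (vertical axis, grouped by role) on each of the 6 arrays, with 1 point per array and no error bar. LN stroma (red diamonds) is the lowest array for 16 members, with no share over all genes counted. The BLS4 arrays (blue) lie above both BLS12 arrays (orange) for 18, beside 30.8% of genes kept.

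BLS4 and BLS12 are both stromal lines from BALB/cA lymph nodes, and the comparison asks how far their hypoxia and sugar genes differ. BLS4 carried the higher level of 13 of the 30 members tested, with Adm, Bnip3 and P4ha2 among the largest differences, and BLS12 of 2, Pfkfb3 and Slc2a3. Over all 11988 genes tested, 11.4% were higher in BLS4 and 12.2% were higher in BLS12. Egln3, Aldoc and Slc2a3 are in these counts but lay at or above the median only on the arrays of the line where they were high, so the filter let them in on their difference and their values are given below without a test. Of the 27 members at or above the median on all 4 line arrays, 12 were higher in BLS4 and 1 in BLS12. Of 10777 genes 12% and 14.1% were, so the BLS4 count stood above its background and the BLS12 count did not. The members were chosen with earlier results of these data known, so the excess describes this list and is not independent support. The median difference, BLS12 minus BLS4, was -0.49 over the 30 members and 0.0 over all genes, and -0.47 and 0.01 with the stricter filter, where 22 members were below 0 and 5 above. Without antibody the members' median was -0.35, and with antibody it was -0.59. Calls came from limma on the 4 line arrays with an adjusted p under 0.05, with antibody as a second term. No line and condition was repeated, so a gene's own error was the disagreement between the 2 conditions, with 1 degree of freedom. In limma this error was drawn toward a value pooled over all genes tested, with a weight of 4.59 degrees of freedom. The p-values cover no more than the spread among these 4 arrays, part or all of which may be technical.

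The largest differences lay among the hypoxia-responsive genes. Adm encodes adrenomedullin, a vasodilator peptide, and was read at 11.24 and 11.19 in BLS4 without and with antibody, at 7.53 and 9.07 in BLS12, at 9.62 in MEF and at 10.35 in LN stroma. Every BLS4 array was thus above every other array, and unstimulated BLS12 was the lowest of the 6. The fitted difference between the lines was -2.92 ± 0.364 (SE, limma adjusted p = 0.0061). Bnip3 encodes a mitochondrial protein that promotes removal of mitochondria, and stood at 9.93 and 10.24 in BLS4 against 8.28 and 7.71 in BLS12, with 7.71 in MEF and 7.47 in LN stroma. Its difference was -2.09 ± 0.23 (SE, limma adjusted p = 0.00425), and a second Bnip3 row differed by -1.70 without antibody, close to the -1.65 of the brightest row. P4ha2 encodes a subunit of the prolyl hydroxylase that matures collagen, and fell from 9.52 and 9.95 in BLS4 to 8.12 and 7.41 in BLS12, a difference of -1.98 ± 0.278 (SE, limma adjusted p = 0.00825). Its companion P4ha1 did not pass the test, at 11.23 and 11.11 in BLS4 and 11.28 and 10.63 in BLS12. The 4 further hypoxia genes did not pass either at the main filter. Ndrg1, a stress-induced gene of differentiation, differed by -0.51 (limma adjusted p = 0.0643, and 0.0485 with the stricter filter), Ankrd37, an ankyrin repeat gene, by -0.47 (0.0667), Kdm3a, a histone demethylase, by -0.19 (0.386) and Vldlr, a lipoprotein receptor, by 0.23 (0.306).

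Of the oxygen sensors and their target, Egln1 differed between the lines and Hif1a did not pass the test. Egln3, an oxygen-dependent hydroxylase that marks the factor for destruction, was at 7.14 and 7.63 in BLS4 and at 4.82 and 4.66 in BLS12, with 6.78 in MEF and 5.77 in LN stroma. The BLS12 levels lay under the array median, and the difference of -2.65 is a description of approximate size. Egln1, the main such hydroxylase in most cells, was 9.69 and 9.72 in BLS4 and 9.0 and 8.82 in BLS12, a difference of -0.79 ± 0.144 (SE, limma adjusted p = 0.0163). Hif1a itself was 11.83 and 12.03 in BLS4 and 11.57 and 11.64 in BLS12, and BLS4 was the higher line in each condition, with an adjusted p of 0.152 in limma.

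The kinases that set the pace of sugar use went in both directions, and all 3 passed the limma test. Pfkfb3 and Pfkfb4 make and remove fructose 2,6-bisphosphate, the strongest activator of phosphofructokinase, and Pdk1 blocks the entry of pyruvate into mitochondria. Pfkfb3 was higher in BLS12, at 8.0 and 7.98 against 6.29 and 6.98 in BLS4, by 1.35 ± 0.203 (SE, limma adjusted p = 0.00996). Pfkfb4 was higher in BLS4, at 7.91 and 7.26 against 6.09 and 5.98 in BLS12, and differed by -1.55 ± 0.177 (SE, limma adjusted p = 0.00461). The related genes thus pointed opposite ways, with no overlap between the arrays of the lines in either case. Such a separation was common, with BLS4 above for 30.8% of genes kept and BLS12 above for 33.2%. Pdk1 was 9.0 and 9.22 in BLS4 and 8.27 and 7.68 in BLS12, a difference of -1.13 ± 0.217 (SE, limma adjusted p = 0.019).

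Of the 13 glycolytic enzyme genes, 5 were higher in BLS4 and 0 in BLS12, Aldoc among the 5 through the arrays of BLS4 alone, and the other 8 did not pass the test. Pgk1, phosphoglycerate kinase, the enzyme of the first ATP-yielding step, showed the largest difference of the 5, from 12.36 and 12.61 in BLS4 to 11.15 and 10.77 in BLS12. The fit gave -1.52 ± 0.191 (SE, limma adjusted p = 0.00619). The 3 Pgk1 rows each differed by -1.21 without antibody, but they were equal or nearly equal on every array and are not separate support. Pfkl, the liver-type phosphofructokinase, differed by -0.81 (limma adjusted p = 0.0174), and the aldolase Aldoa by -0.68 (0.0337). Ldha, the lactate dehydrogenase subunit that favours lactate, differed by -0.69 (limma adjusted p = 0.0294), at 11.99 and 12.15 in BLS4 and 11.47 and 11.29 in BLS12. Aldoc, another aldolase, was 6.38 and 6.07 in BLS4 and under the array median in BLS12, at 5.41 and 5.52. Pgam1, phosphoglycerate mutase, and Pkm, pyruvate kinase, had fitted differences of -0.59 (limma adjusted p = 0.0884) and -0.45 (0.0804) that did not pass. The values of Tpi1 (triosephosphate isomerase, -0.23) and Eno2 (the neuronal enolase, -0.24) did not pass, with limma adjusted p of 0.458 and 0.355. Nor did those of Hk2 (an inducible hexokinase, 0.00), Pfkm (the muscle-type phosphofructokinase, 0.22) and Pfkp (the platelet-type form, 0.02), with limma adjusted p of 0.998, 0.334 and 0.97. Pfkp was higher in BLS12 without antibody, at 8.94 against 8.24, and lower with it, at 7.61 against 8.28.

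Hk1, the hexokinase found in most tissues, depended on the row that represented it. Its brightest row, at 12.52 to 13.0 over the 6 arrays, gave a line difference of 0.22 (limma adjusted p = 0.303). That row was tied to Hk1 through 1 sequence record alone, and the same record stood on 16 rows that also named Rpl17, a ribosomal protein gene, which differed by 0.23 to 0.37 between the unstimulated lines. The other Hk1 row, annotated with reference transcripts, was 9.70 and 9.80 in BLS4, 8.76 and 9.01 in BLS12, 8.86 in MEF and 8.54 in LN stroma. Read from that row, an alternative chosen after seeing the data, Hk1 differed by -0.86 and the number of members higher in BLS4 rose from 13 to 14. The rows of Pgk1, Pgam1, Pkm and Bnip3 agreed in direction between the unstimulated lines, and some of the Pgk1 and Pgam1 rows gave equal values at 2 decimals. Glycolytic genes have processed pseudogenes of near-identical sequence, and the part of such copies in these signals was not tested.

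The transporters did not move as a group. Slc16a3, the lactate exporter MCT4, was higher in BLS4, at 7.06 and 7.05 against 6.29 and 6.05 in BLS12, and differed by -0.88 ± 0.146 (SE, limma adjusted p = 0.013). Slc2a3, the high-affinity glucose transporter GLUT3, was 6.29 and 6.36 in BLS12 and under the array median in BLS4, at 5.60 and 5.62, a difference of 0.72 given as a description. Slc2a1, the widespread glucose transporter GLUT1, did not pass, at 10.08 and 10.42 in BLS4 and 9.82 and 10.22 in BLS12 (difference -0.23, limma adjusted p = 0.277).

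**Figure D2:**
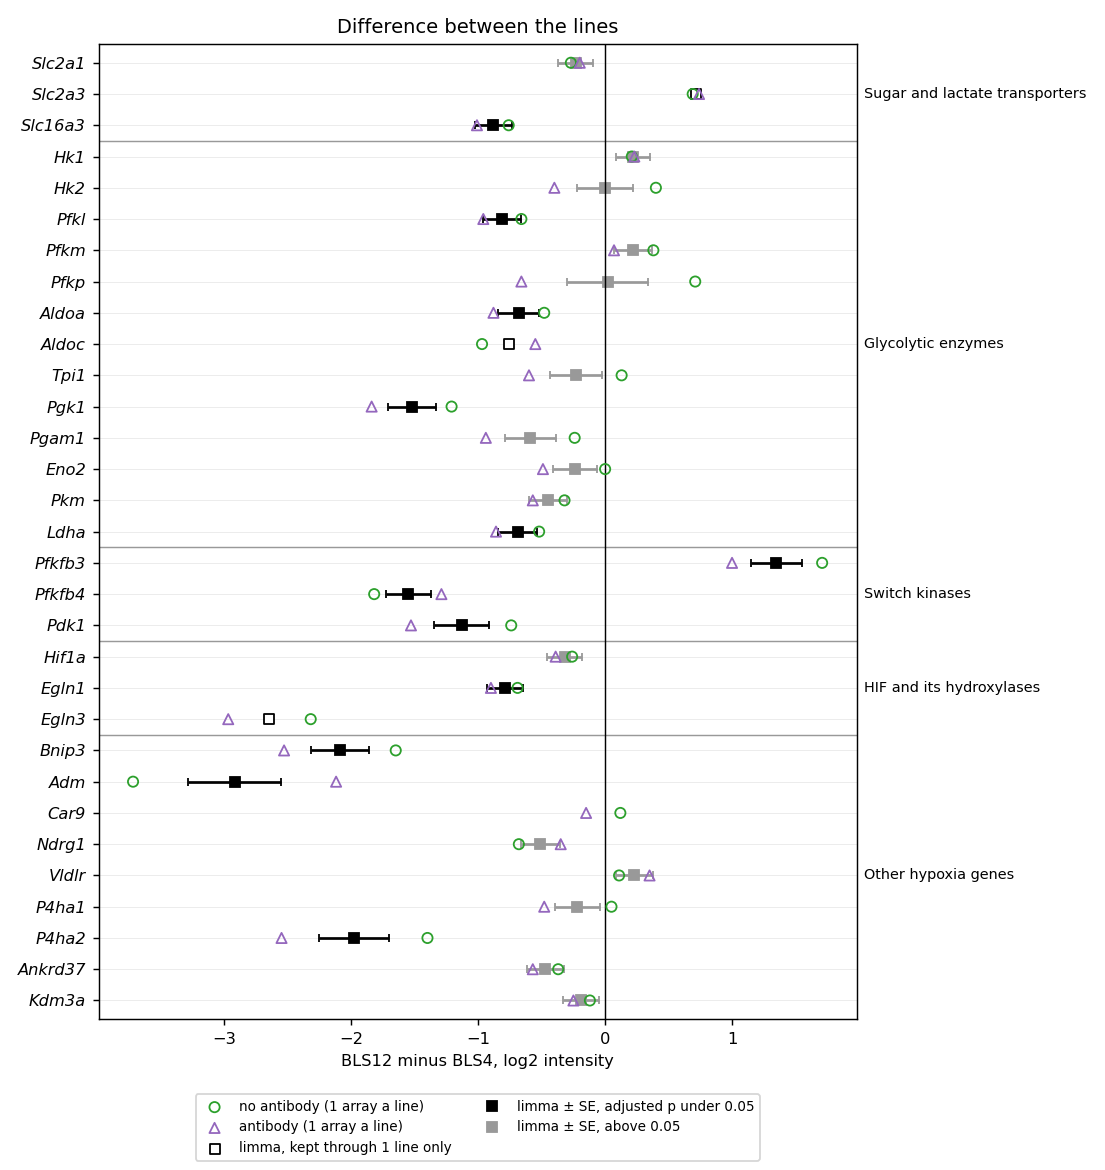
BLS12 minus BLS4 in log2 intensity (horizontal axis) for the 31 members, with the limma estimate ± SE as squares, black where the adjusted p was under 0.05 and open without SE for 3 genes kept through 1 line only, and the difference of the single arrays without antibody (circles) and with it (triangles). The black squares left of 0 reach from Aldoa at -0.68 to Adm at -2.92, and the one on the right is Pfkfb3 at 1.35.

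Both BLS4 arrays lay above both BLS12 arrays for 18 of the 31 members, and the reverse held for 4, where the same patterns held for 30.8% and 33.2% of all genes kept. Other hypoxia-responsive genes, listed apart from the members, had 16 of 35 tested higher in BLS4 and 4 higher in BLS12, with a median of -0.46. The shares over all genes, for this list and those below, were 11.4% higher in BLS4 and 12.2% higher in BLS12. The BLS12 count here was near its share. The largest in the first direction were Lox, which crosslinks collagen (-1.97), Higd1a, a mitochondrial protein (-1.55), Edn1, the endothelin peptide (-1.24), and Stc1, a secreted glycoprotein (-1.12). In the other direction they were Car12, a carbonic anhydrase (3.02), Plod2, a collagen lysyl hydroxylase (1.09), Angptl4, an inhibitor of lipoprotein lipase (0.71), and Wsb1, a ubiquitin ligase part (0.68). Car12 lay under the array median in BLS4 and Stc1 in BLS12, so the sizes of their differences are approximate. Each was kept through the line where it was high, so the filter let it into these counts on its difference. Of 16 other glycolysis, lactate and pyruvate genes tested, 4 were higher in BLS4 and 2 in BLS12. The lactate carrier Slc16a1 was 7.53 and 7.60 in BLS4 and 11.17 and 10.29 in BLS12, a difference of 3.16 (limma adjusted p = 0.00148) opposite to that of Slc16a3. The pyruvate dehydrogenase kinases Pdk4 and Pdk3 were higher in BLS4, with differences of -2.90 and -1.16, as were the opposing phosphatase Pdp1 (-1.50) and Bpgm, a phosphoglycerate enzyme (-0.59), and pyruvate carboxylase, Pcx, was higher in BLS12 by 1.08. Pdk4 lay under the array median in BLS12, at 5.16 and 4.92, and was kept through BLS4 alone. Of 11 other regulators of the factor, 1 passed the test: Hif1an, an asparagine hydroxylase that restrains it, higher in BLS12 by 0.57. A summed level, used from here on, is the log2 of a list's summed intensities, in which the brightest genes weigh most. Proliferation genes moved with the line as well, with 6 of 7 higher in BLS12 and a summed level of 9.88 and 10.35 in BLS4 against 12.33 and 11.34 in BLS12. So did epithelial and mesothelial markers, with 3 of 5 higher in BLS12 and a summed level of 8.56 and 8.41 in BLS4 against 10.86 and 9.73 in BLS12. Upk3b, at 10.17 and 8.61, was the brightest of that list in BLS12 and weighed most in its sum. Krt19, among the 3, lay under the array median in BLS4, at 5.65 and 5.64, and was kept through BLS12 alone. Dissociation stress genes went the way of the members, with 4 of 9 higher in BLS4 (Jun -0.79, Egr1 -0.76, Dusp1 -0.75 and Fos -0.67) and 0 in BLS12, and a summed level of 11.29 and 11.38 in BLS4 against 10.67 and 10.99 in BLS12. Of the stromal markers, 1 of 9 was higher in BLS4 (Pdgfrb, -1.91) and 2 in BLS12 (Vcam1 and Col3a1, each 0.90), and of 3 myeloid markers tested Cd68 was higher in BLS4 (-1.10). The part of these lists in the differences of the members was not tested.

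The 5 promoters with the largest differences between the lines are shown, since the factor binds a short core, written here as ACGTG or GCGTG and searched on both strands. A CACGTG stretch matches on each strand and counts as 2 overlapping matches. Each sequence is the 250 bases before the gene's start, 5′ to 3′ on the gene's strand, from RefSeq with build GRCm38.p6, and the matches are in capitals. They lie at chr7:110627407-110627656 on the plus strand for Adm, chr12:54203875-54204124 on the minus strand for Egln3, chr7:138909507-138909756 on the minus strand for Bnip3, chr11:54100674-54100923 on the plus strand for P4ha2 and chr9:108991652-108991901 on the plus strand for Pfkfb4.
Adm: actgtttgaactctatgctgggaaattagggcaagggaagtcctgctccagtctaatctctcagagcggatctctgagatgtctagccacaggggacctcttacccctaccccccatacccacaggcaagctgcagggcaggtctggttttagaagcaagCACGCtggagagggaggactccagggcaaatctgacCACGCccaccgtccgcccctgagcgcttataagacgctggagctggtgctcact
Egln3: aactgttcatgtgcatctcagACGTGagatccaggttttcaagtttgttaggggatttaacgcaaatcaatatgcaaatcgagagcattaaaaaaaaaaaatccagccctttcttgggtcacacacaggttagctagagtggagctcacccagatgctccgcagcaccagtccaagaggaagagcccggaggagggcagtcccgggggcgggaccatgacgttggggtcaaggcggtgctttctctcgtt
Bnip3: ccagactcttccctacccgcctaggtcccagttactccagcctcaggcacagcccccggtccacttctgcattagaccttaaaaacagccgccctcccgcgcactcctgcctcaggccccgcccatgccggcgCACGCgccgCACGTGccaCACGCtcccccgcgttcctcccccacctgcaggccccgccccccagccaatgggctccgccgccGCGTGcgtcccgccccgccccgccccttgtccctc
P4ha2: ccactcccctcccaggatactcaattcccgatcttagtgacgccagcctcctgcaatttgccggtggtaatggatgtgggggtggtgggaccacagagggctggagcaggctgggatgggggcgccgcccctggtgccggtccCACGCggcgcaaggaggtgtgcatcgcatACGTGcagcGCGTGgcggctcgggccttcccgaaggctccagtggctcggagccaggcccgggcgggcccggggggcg
Pfkfb4: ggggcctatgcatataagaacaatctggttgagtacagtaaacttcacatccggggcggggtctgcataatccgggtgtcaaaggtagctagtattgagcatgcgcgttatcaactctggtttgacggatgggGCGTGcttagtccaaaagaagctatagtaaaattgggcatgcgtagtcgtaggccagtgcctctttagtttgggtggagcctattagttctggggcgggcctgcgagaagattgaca

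The Adm stretch held 2 matches, Egln3 1, Bnip3 5, P4ha2 3 and Pfkfb4 1. In the promoter table, 29 of the 31 members had an entry, and 26 of these (89.7%) held at least 1 match in an upstream stretch of this length, against 11226 of 27025 genes (41.5%). Counted by promoter the shares were 74.4% of 43 and 38.6% of 32851. Eno2, Tpi1 and Vldlr had no match, and Slc2a3 and Ndrg1 were not in the table. Members with a match stood on both sides of the line difference, Pfkfb3 among them with up to 3 in a promoter and Hif1a with 3. A match of letters is a description of the sequence and does not show that the factor binds there.

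Against MEF, freshly sorted LN stroma carried lower levels of several glycolytic enzymes, from Pfkl and the aldolases down to Ldha, and a higher level of Ndrg1. At least 2-fold differences were counted, since each group had 1 array and no test was possible: 8 of 30 members were lower in LN stroma and 1 was higher, beside 12.1% and 10.2% of 12613 genes. The median difference was -0.31 for the members and -0.11 for all genes. Of the 13 enzymes, 7 were at least 2-fold lower, and of the other members Egln3 was. Aldoc and Egln3 lay under the array median in LN stroma and were kept through MEF alone, and without them 6 members were lower. The samples were of the same strain, but age, tissue and culture set them apart and the parts of these cannot be told apart, and in whole samples fewer cells of a type and less RNA per cell cannot be told apart either.

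Pgk1 was 11.62 in MEF and 9.65 in LN stroma, Pgam1 10.57 and 8.78, and Pkm 11.93 and 10.14. The differences of these 3 genes of the lower part of glycolysis were -1.98, -1.79 and -1.78. Ldha (-1.27), Pfkl (-1.08) and Aldoa (-1.03) were nearer to the 2-fold size, and Egln3 (-1.01) lay just past it. Aldoc had the largest difference, from 7.97 in MEF to 5.28 in LN stroma (-2.69), the latter under the array median, and it was the only member past a 4-fold size. Tpi1 (-0.91) fell just short of 2-fold, and Hif1a (-0.68), Slc16a3 (-0.64) and Pfkm (-0.62) were smaller still. Ndrg1 stood at 8.84 in MEF and 10.50 in LN stroma, a difference of 1.66. The glucose transporters lay within 2-fold, with differences of 0.03 for Slc2a1 and 0.16 for Slc2a3, as did Hk2 (-0.37), and of the phosphofructokinases Pfkp (0.13) and Pfkm lay within it and Pfkl did not. Adm (0.73), Vldlr (0.68) and Pfkfb3 (0.51) were higher in LN stroma by less than 2-fold.

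Against the unstimulated lines, 8 of 30 members were at least 2-fold lower in LN stroma than in each line and 2 were higher, beside 4.25% and 7.03% of 12827 genes. The lower 8 were the enzymes Pfkl, Pfkm, Tpi1, Pgk1, Pgam1 and Pkm, with Pdk1 and Hif1a. The median difference over the 30 members, as the mean of the lines, was -0.59, against -0.09 for all genes. This comparison and the one with MEF share the LN stroma array. Strain, culture and establishment as a line differed between the samples and cannot be told apart.

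Pfkl was 7.87 in LN stroma and 10.67 and 10.01 in unstimulated BLS4 and BLS12, with differences of -2.80 and -2.14. Pdk1 was 6.33 in LN stroma, 6.77 in MEF, and 9.0 and 8.27 in the lines, so that the fresh cells and MEF lay close together and the lines above them. Hif1a was 9.88 in LN stroma, 10.56 in MEF, and 11.83 and 11.57 in the lines, in the same order. Pgam1 (-2.33 and -2.09 from BLS4 and BLS12), Pkm (-1.77 and -1.45), Tpi1 (-1.49 and -1.62) and Pfkm (-1.11 and -1.49) were lower in LN stroma by similar steps from each line. For Pgk1 the step was larger from BLS4 (-2.71) than from BLS12 (-1.50). Slc2a3 and Vldlr were the 2 higher members: Slc2a3 was 7.73 in LN stroma and 5.60 and 6.29 in the lines, and Vldlr was 8.86 against 6.28 and 6.39. MEF stood near LN stroma for both, at 7.57 and 8.18. Slc2a3 lay under the array median in BLS4, and with all arrays held at or above it Vldlr alone was higher. For 7 members LN stroma lay between the unstimulated lines: Adm, Egln3, P4ha2, Ndrg1, Pfkfb3, Pfkfb4 and Slc16a3. How often this held over all genes was not counted, so it only describes the members. Adm in LN stroma differed by -0.90 from BLS4 and by 2.82 from BLS12, Egln3 by -1.37 and 0.95, P4ha2 by -1.13 and 0.28, and Ndrg1 by -0.17 and 0.52. Bnip3 differed by -2.47 from BLS4 and -0.81 from BLS12. The count depends on the line: against BLS4 alone 16 members were at least 2-fold lower in LN stroma and 4 higher, and against BLS12 alone 8 and 3. Shares over all genes were not counted for a single line, and those given above hold for both lines together.

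**Figure D3:**
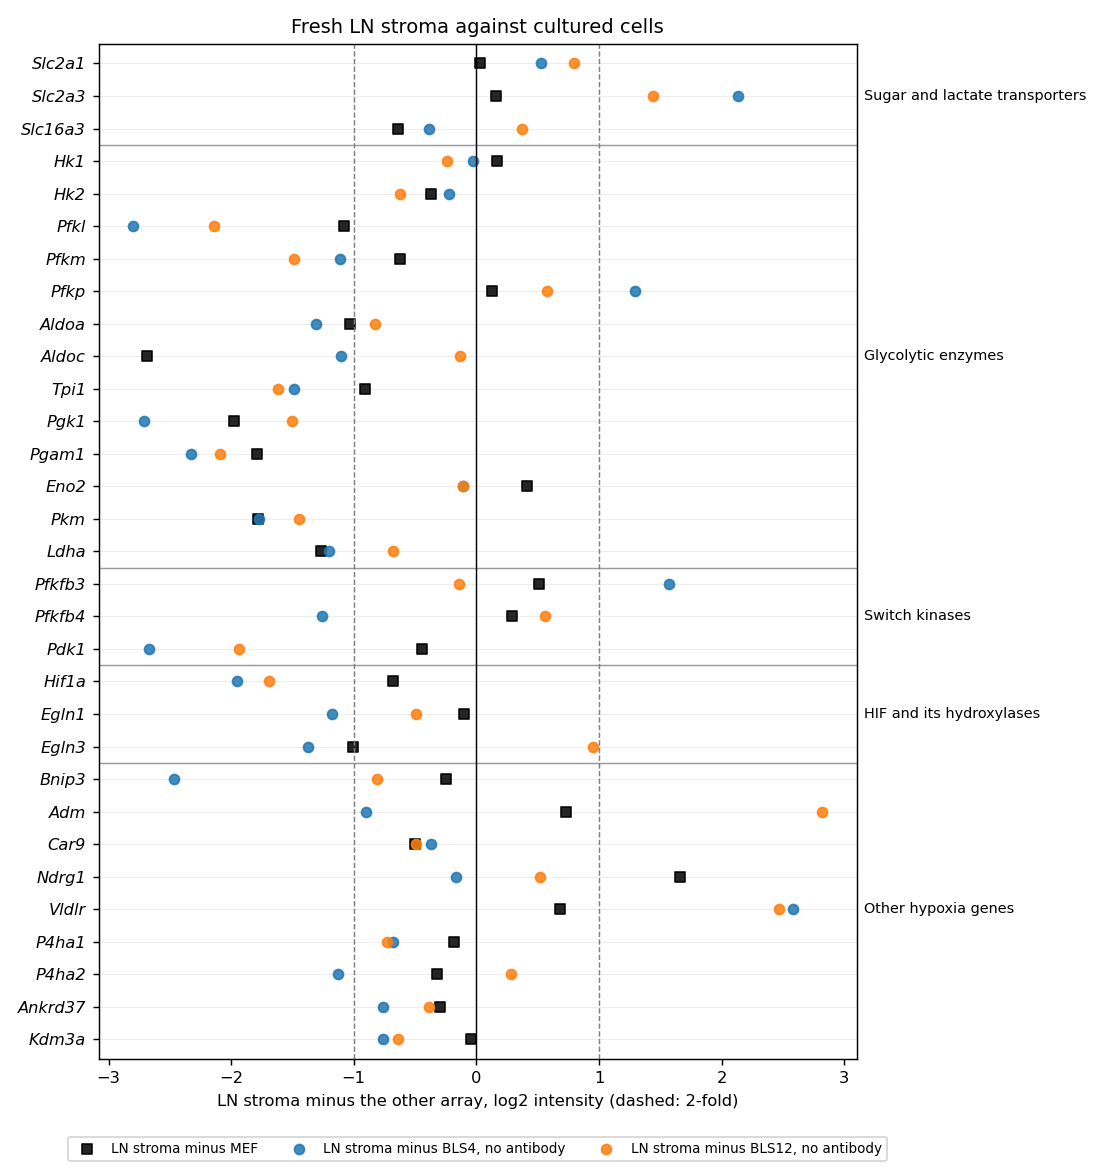
LN stroma minus another array in log2 intensity (horizontal axis, dashed lines at 2-fold) for the 31 members: minus MEF (black squares) and minus unstimulated BLS4 (blue) and BLS12 (orange), 1 array each and no error bar. Pfkl, Pgk1, Pgam1 and Pkm lie left of the dashed line at -1 in all 3, while Slc2a3 and Vldlr lie right of the one at 1 against each line.

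Genes of the same pathways outside the list did not all go down in LN stroma. Over all genes kept, 10.2% were at least 2-fold higher and 12.1% lower than in MEF. Against both lines 7.03% were higher and 4.25% lower. Of 16 other glycolysis, lactate and pyruvate genes, 4 were at least 2-fold lower than in MEF (Eno3, the muscle enolase, -1.99, Pcx -1.23, Bpgm -1.20 and Pdk3 -1.12) and Pdk4 was higher by 1.13. Against both lines 2 of them were lower, with mean differences of -1.92 for Pcx and -1.57 for Eno3. Epas1, which encodes the second oxygen-regulated subunit, was 11.43 in LN stroma, 7.10 in MEF and 6.68 to 7.16 on the line arrays. It was the one regulator at least 2-fold higher, by 4.32 against MEF and 4.49 against the lines, while Arnt2, a partner subunit, was lower (-1.14 and -1.23) and Elob, of the ligase that destroys the factor, was lower than in MEF (-1.07). Of 37 other hypoxia genes kept, 7 were at least 2-fold higher and 12 lower than in MEF, and 7 higher and 9 lower than in both lines. Stc1 was 10.88 in LN stroma and 5.51 to 6.89 on the other 5 arrays, and Vegfa, the vascular growth factor, was 11.13 against 8.25 to 9.33. Angptl4 (3.61) and Bhlhe40, a transcription repressor (2.29), were also higher than in MEF, and Cxcr4, a chemokine receptor (2.79), and Angptl4 (2.29) were also higher than in the lines. The lower genes were led by Tfrc, the transferrin receptor (-3.60), P4ha3 (-3.0), Lox (-2.95) and Plaur, the urokinase receptor (-2.06), against MEF. Against the lines they were P4ha3 (-2.92), Lox (-2.65), Mif, a cytokine (-2.51), and Hmox1, which breaks down haem (-2.18). P4ha3 lay under the array median in LN stroma, at 5.26, and was kept through the other arrays. Cxcr4 lay under it in unstimulated BLS12, at 5.46, so the sizes of both genes' differences are approximate.

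Other marks of the sorted sample moved with these values, and the shares over all genes were those given above. Of 9 stromal markers, 5 were at least 2-fold higher in LN stroma than in MEF and 0 lower. The largest were Ccl19 (6.4), Pdgfra (4.04), Col3a1 (2.26) and Vcam1 (1.94). Against both lines Ccl19 alone was at least 2-fold higher, with a mean difference of 6.45, and 0 were lower. Immediate early and heat shock genes, which tissue dissociation is known to raise, were at least 2-fold higher in LN stroma for 9 of 9 against MEF and against the lines, with a summed level of 15.60 against 10.67 to 11.38 on the other arrays. Proliferation genes were lower for 7 of 7 against MEF and for 4 of 7 against the lines, with a summed level of 8.68 against 9.88 to 12.33 on the other arrays. Of these, Top2a, Kif11 and Bub1 lay under the array median in LN stroma and were kept through the other arrays. Endothelial markers were at or above the median for 5 of 7 in LN stroma, with a summed level of 9.32 against 7.85 to 8.30. Tek, at 8.18, was the brightest of them in LN stroma and weighed most in that sum. Against MEF, Tek (3.0), Pecam1 (1.71) and Cdh5 (1.17) were at least 2-fold higher and Emcn (-1.08) lower. Tek, Pecam1 and Cdh5 lay under the array median in MEF. They were kept through LN stroma alone, so the filter fixed their direction and their sizes are approximate. Myeloid markers were at or above the median for 2 of 8 in LN stroma and 7 of 8 in MEF, with summed levels of 8.75 and 11.10. The part of these genes in the results on the members was not tested.

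Against MEF, the unstimulated lines carried higher levels of 4 members and lower levels of 3, at least 2-fold and in both lines, beside 1.97% and 3.85% of 12676 genes. Higher were Pfkl, Pdk1, Ndrg1 and Hif1a, and lower were Aldoc, Slc2a3 and Vldlr, while quantile normalization left 2 higher and 3 lower. The median difference of the members was 0.20 and that of all genes 0.01. The comparison shares the MEF array with that of LN stroma, and strain, tissue and establishment as a line cannot be told apart. Aldoc lay under the array median in BLS12 and Slc2a3 in BLS4, and with all arrays held at or above it Vldlr alone was lower. Of 7 myeloid markers kept, 6 were at least 2-fold lower in both lines than in MEF, with a median of -1.79 (Adgre1 -2.30, Lyz2 -2.18, Cd68 -2.17 and Tyrobp -1.79), and a summed level of 11.10 in MEF against 9.45 and 8.90 in the unstimulated lines. Emcn, of the endothelial list (-3.26), Krt19 (-2.17) and Krt18 (-1.49) were lower too, and Pdgfra, of the stromal list, was higher by 3.14. Csf1r, Adgre1, Itgam, Tyrobp and Emcn lay under the array median in both unstimulated lines. They were kept through MEF alone, so the filter fixed their direction. Krt19 and Krt18 lay under the array median in BLS4, so the sizes of their differences are approximate. The part of these markers in the results on the members was not tested.

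Pdk1 was 6.77 in MEF and the lines were above it by 2.23 (BLS4) and 1.5 (BLS12), and Ndrg1, at 8.84 in MEF, gave 1.83 and 1.14. Pfkl differed by 1.73 and 1.06, and Hif1a by 1.27 and 1.01, so in all 4 genes BLS4 stood further from MEF than BLS12. Slc2a3 was below MEF in each line (-1.97 for BLS4 and -1.28 for BLS12), as were Vldlr (-1.90 and -1.79) and Aldoc (-1.59 and -2.56). The most line-dependent members straddled MEF: the difference of Adm was 1.62 for BLS4 and -2.09 for BLS12, of Pfkfb3 -1.07 and 0.64, of Pfkfb4 1.54 and -0.27, and of Egln3 0.36 and -1.97. Bnip3 was above MEF in each line, by 2.22 and 0.57. Ldha and Pkm lay within 1 unit of MEF in each line, with differences of -0.07 and -0.59 for Ldha and -0.01 and -0.33 for Pkm. With BLS4 alone 8 members were at least 2-fold higher than MEF and 5 lower, and with BLS12 alone 4 and 6, again with no share over all genes counted. Of the other pathway lists, only 2 hypoxia genes reached 2-fold in both lines, Angptl4 with a mean of 1.32 and Plaur with -1.49, of 37 kept. Over all genes 1.97% were higher and 3.85% lower in both lines.

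Stromal cells respond to lymphotoxin through LTβR, and the antibody arrays ask which genes follow activation of this receptor. No member passed the test for a shared antibody difference: 0 of 30 were higher and 0 lower in limma, beside 0.2% and 0.0751% of 11988 genes. Those shares are 24 and 9 genes, and they became 54 and 44 with each array centred on its median and 5 and 1 under quantile normalization, with 0 members among the calls each time. At an unadjusted p under 0.05 there were 3 members, Vldlr, Eno2 and Slc2a1, beside 11.6% of all genes, and the lowest adjusted p of a member was 0.129 for Vldlr. The median of the members was -0.03 and that of all genes -0.02. An estimate that misses the threshold with 1 array of each line and condition does not show that the genes stayed level.

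Vldlr was 6.28 and 6.93 in BLS4 without and with antibody and 6.39 and 7.28 in BLS12, differences of 0.65 and 0.89. The fitted value was 0.77 ± 0.146 (SE). Eno2 was 7.91 and 8.73 in BLS4 and 7.92 and 8.24 in BLS12, with a fitted value of 0.57 ± 0.172 (SE, limma adjusted p = 0.305). Slc2a1 differed by 0.33 and 0.40, with a fitted value of 0.37 ± 0.138 (SE, limma adjusted p = 0.402). In these 3 genes the antibody array was the higher in each line. The antibody difference of Hif1a was 0.20 for BLS4 and 0.07 for BLS12, that of Egln1 0.03 and -0.19, and that of Ldha 0.16 and -0.18. Slc2a3 was nearly level in each line, with differences of 0.02 and 0.06. Of the other pathway genes, Angptl4 alone passed the test, at 7.91 and 9.51 in BLS4 and 8.43 and 10.41 in BLS12, a difference of 1.79 ± 0.158 (SE, limma adjusted p = 0.0337), and 0 of 16 other glycolysis genes and 0 of 11 regulators did.

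Within each line the signs of the members were counted beside those of all genes. In BLS4, 25 of the 30 were higher with antibody, where 6386 of 11988 genes were, with a median of 0.17 against 0.02 for all genes, and none reached 2-fold (0 higher and 0 lower, beside 0.968% and 0.601% of genes). In BLS12, 19 of the 30 were lower, where 6767 of 11988 genes were, with a median of -0.14 against -0.05 for all genes, and at least 2-fold differences were 1 upward and 1 downward, beside 1.6% and 2.13%. The one upward was Adm, from 7.53 to 9.07 in BLS12 and from 11.24 to 11.19 in BLS4, and the one downward was Pfkp, from 8.94 to 7.61 in BLS12 and from 8.24 to 8.28 in BLS4. P4ha2 went from 9.52 to 9.95 in BLS4 and from 8.12 to 7.41 in BLS12, Bnip3 from 9.93 to 10.24 and from 8.28 to 7.71, and Hk2 from 8.87 to 8.96 and from 9.27 to 8.56. Over all 31 members, 16 were positive in BLS4 and negative in BLS12, a pattern that 24.9% of genes kept showed, 9 were positive in both, 4 negative in both and 2 the other way round. The difference between the lines has no test of its own, since each rests on 1 array per condition. Centring each array on its median shifts all genes of an array alike, and then 24 of the 30 were lower in BLS12, with a median of -0.27 against -0.18 for all genes, and 25 were higher in BLS4. Other lists had the same signs: 7 of 7 proliferation genes were higher with antibody in BLS4 (median 0.55) and 7 of 7 were lower in BLS12 (median -1.05), and of 25 genes of the tricarboxylic acid cycle and respiratory chain 19 were higher in BLS4 (median 0.06) and 23 lower in BLS12 (median -0.17). Their part in the values of the members was not tested.

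**Figure D4:**
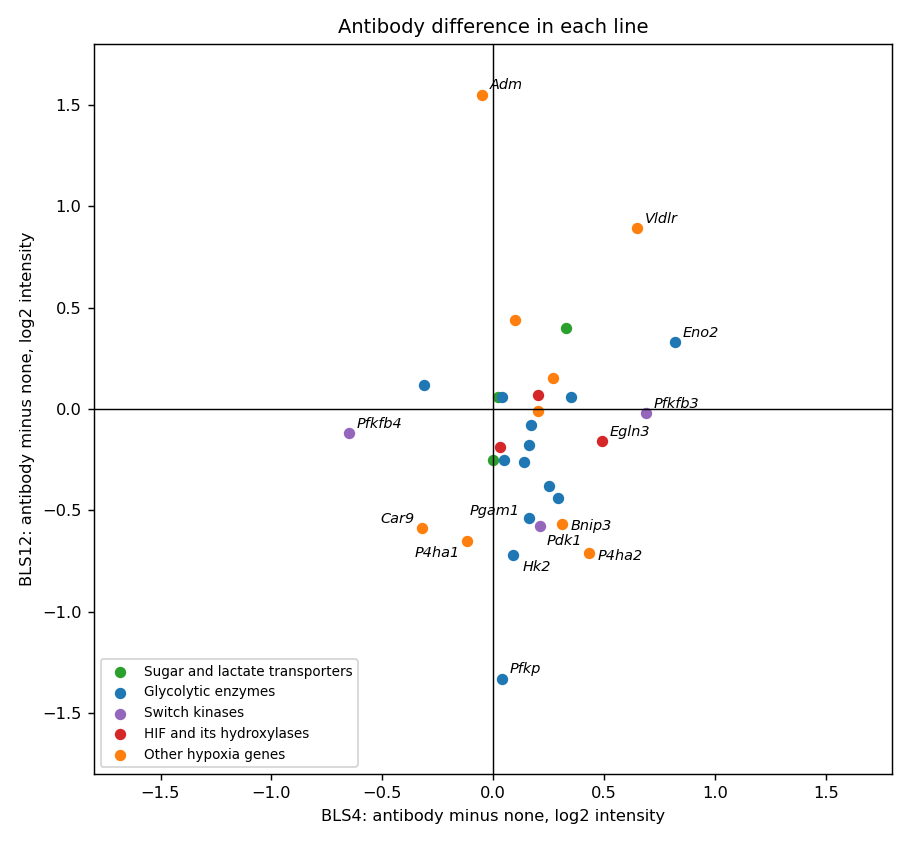
Antibody minus none in log2 intensity for the 31 members, in BLS4 (horizontal axis) and in BLS12 (vertical axis), 1 array per condition and no error bar, coloured by role. The lower right part, higher in BLS4 and lower in BLS12, holds 16 members, and Adm (1.55) and Pfkp (-1.33) lie furthest from 0 on the BLS12 axis.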

How the data were processed

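RNA of 6 samples had been labelled with biotin after RNeasy Plus extraction and hybridised to Affymetrix arrays, per the labels' protocols. The authors deposited a linear intensity for each probe set, made with Affymetrix Expression Console 1.1 per the submitters' processing notes. How probes were summarised and normalized, and on which build, is not given in the sources used here. With a lowest intensity of 3.55, log2 needed no pseudocount, as the design provided for linear values. Of 35557 rows, 21789 named 1 gene (21698 matched by Entrez ID), 1621 several and 12147 none, and only the first were used. Names came from GEO's platform annotation, updated through RefSeq tables.

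The lines and the antibody were compared in 1 additive model over the 4 line arrays (limma 3.58.1 in R 4.3.3, lmFit and eBayes, two-sided, Benjamini-Hochberg at 0.05). Genes were kept with at least 2 of the 4 arrays at or above the array median. The fit had 1 residual and 4.59 prior degrees of freedom with a prior SD of 0.151. MEF and LN stroma, with 1 array each, were compared by 2-fold counts among genes with at least 1 compared array at or above its median, in both lines where lines took part. No detection call was used. Precision is limited by the number of arrays.

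Every member with a row was named. From the other lists (pathway, proliferation, dissociation stress, cell types), at most the 4 largest differences each way were named in a comparison. For some lists only counts or summed levels were given, so a gene left unnamed may still have differed. The members and lists were chosen with earlier results of these data known. Alternatives covered scaling, filters, row choice, fold size, left-out arrays and the replicate block.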

Additional observations from a re-analysis of the deposited data

Results flagged for a closer look

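Opposite antibody differences in the lines, at least 1 log2 unit apart, drew attention to 3 members, and in none was the difference between the lines tested. For Adm the antibody difference was -0.05 in BLS4 and 1.55 in BLS12, which are 1.60 apart. For Pfkp it was 0.04 in BLS4 and -1.33 in BLS12, so the value of BLS12 minus that of BLS4 was -1.37. For P4ha2 it was 0.43 in BLS4 and -0.71 in BLS12, and the corresponding value was -1.14. The BLS4 differences of Adm and Pfkp lay close to 0, so the contrast rested on the BLS12 arrays.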

How the results depend on the processing

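Each line and condition had 1 array, so leaving an array out left no residual and gave values with no test. For the lines, 2 members were higher in BLS12 and 1 when all arrays had to lie at or above the median, which removed Slc2a3 there and Egln3 and Aldoc from the members higher in BLS4, where Ndrg1 came in (13 became 12). The 2835 genes called became 1428 without the replicate block, here the antibody term, and Aldoa then lost its call (Pkm gained one under quantile normalization). The sign of Hk1 turned to -0.32 with the mean of its rows and -0.86 by its other row, and that of Pfkp to -0.03 under quantile normalization. The median of the members was -0.59 to -0.35 over the left-out arrays. For the antibody, 0 members were called in any of these fits, while the 33 genes called became 98 with arrays centred, 6 under quantile normalization, 54 with no filter, 115 with the stricter filter and 0 without the replicate block, here the cell line. The members' median of -0.03 ranged from -0.14 to 0.17 over the left-out arrays. Small antibody values turned sign: Hk1 to -0.02, Pkm to -0.03 and Slc2a3 to -0.03 with arrays centred, and Ldha to 0.00 and Slc2a3 to -0.01 under quantile normalization. For LN stroma against MEF, a 4-fold size left 0 members higher and 1 lower. For the lines against MEF, higher members numbered 2 under quantile normalization and 0 at 4-fold, and 4 to 8 with 1 line left out. Lower members numbered 1 with the stricter filter, 0 at 4-fold and 5 to 6 with 1 line left out. For LN stroma against the lines, higher members numbered 1 with the stricter filter, 1 at 4-fold and 3 to 4 with 1 line left out, and lower members 2 at 4-fold and 8 to 16. At 4-fold and with 1 line left out, the shares over all genes were not counted. The cause of these changes was not tested beyond what the settings remove.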

Other observations

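Genes of the tricarboxylic acid cycle and the respiratory chain, which burn the pyruvate that glycolysis supplies, had mostly positive differences between the lines. Of 25 tested, 4 were higher in BLS12 and 0 in BLS4 in limma, where 12.2% and 11.4% of all genes were, so the first share was near its background, with a median of 0.32 and 22 above 0. The 4 were Ndufv1, a subunit of complex I (1.04, limma adjusted p = 0.0101), Cs, citrate synthase (0.61, 0.0395), Atp5a1, of the ATP synthase (0.57, 0.0411), and Suclg1, of succinate-CoA ligase (0.58, 0.0456). Cs was 10.42 and 10.40 in BLS4 and 11.19 and 10.85 in BLS12. In LN stroma 5 of the 25 were at least 2-fold lower than in MEF, beside 12.1% of all genes, led by Cox5a (-1.68) and Idh3a (-1.41). The median of the 25 was -0.61. Against both lines 2 were lower, Cox5a and Cs, beside 4.25% of all genes. With antibody 0 of 25 passed the test. Of the 6 pentose phosphate genes, Pgd was higher in BLS4 (-0.73) and the other 5 did not pass.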
